A study of Mus musculus with 27 samples.

Results

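*Phldb1*, *Sorbs3*, *Wipf1*, *Arhgap23*, *Pik3c2b*, *Fnbp1*, *Ddr1* and *Agap1* are 8 genes of cell adhesion, actin assembly and membrane remodeling, measured by RNA-seq in sorted nuclei of the mouse motor cortex. They were chosen by their measured log2 fold change between C9-BACexp and C57BL/6J mice that had received a non-targeted crRNA (NTG) or EGFP-KASH only, in these same libraries. They are 8 of the 39338 genes and added sequences in the table, and all 8 were among the 21768 that passed the filter on low counts. Their genotype differences with NTG and with EGFP-KASH only are therefore descriptions and carry no test. Tests are given for the genotype difference with crRNA-13, whose libraries the choice did not use, and for the spread of the 8 genes among mice of 1 group.

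Each of the 27 libraries came from 1 mouse, 15 of them C9-BACexp and 12 C57BL/6J. C9-BACexp mice are C57BL/6J mice with a bacterial artificial chromosome that holds the human C9ORF72 gene with its repeat expansion, and the C57BL/6J mice are their littermates. RfxCas13d-N2V8 is a high-fidelity variant of an RNA-cutting CRISPR effector, and crRNA-13, "S13" in the labels, directs it to the repeat-containing human transcripts. The C9-BACexp mice had received crRNA-13 (6 mice), NTG (6 mice) or EGFP-KASH only (3 mice). The C57BL/6J mice had received crRNA-13 (3 mice), NTG (5 mice) or EGFP-KASH only (4 mice). Vectors were delivered by AAV at 6 weeks of age and nuclei were sorted 2 months later. The paper's text does not give these times for the mice with EGFP-KASH only. For the NTG mice the labels name the effector as RfxCas13d and the paper as RfxCas13d-N2V8. EGFP-KASH, a fluorescent protein held at the nuclear envelope, was driven by the CAG promoter. All 6 groups carry EGFP-KASH.

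The libraries held 21508829 to 36777972 estimated counts, and the 8 genes had 178 to 33354 estimated counts per library. The human C9ORF72 transcripts summed to 1424 to 3792 counts in the C9-BACexp libraries, against 0 to 16.1 in the C57BL/6J libraries. The labels call the nuclei primary neurons. Across the 27 libraries the glutamatergic neuron marker *Slc17a7* lay at 139.6 to 293 CPM (counts scaled to library size after TMM normalization), while *Mbp*, a myelin gene of oligodendrocytes, lay at 194 to 1704 CPM. Summed per library, the excitatory neuron markers reached 1166 to 2279 CPM and the inhibitory neuron markers 387 to 798 CPM. The oligodendrocyte markers summed to 715 to 7985 CPM, the astrocyte markers to 759 to 1314 CPM and the microglial markers to 31.8 to 135 CPM. These lists differ in length, with 8 excitatory and 30 oligodendrocyte markers. Of the astrocyte markers, *Gfap* had a median of 3.2 CPM (highest 21.1) and *Aqp4* of 2.4 CPM (highest 7.1). Most of the astrocyte sum therefore came from other markers of that list. An oligodendrocyte score was formed for each library as the mean log2(CPM + 0.5) of 30 oligodendrocyte markers, none of which is among the 8 genes. In bulk nuclei, fewer nuclei of a type and less RNA per nucleus cannot be told apart.

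Cells hold on to their surroundings through receptors whose tails recruit adaptor proteins, and these adaptors connect the membrane to actin filaments and to small GTPases. Oligodendrocytes, the myelinating cells of the brain, rely on the same machinery when their processes extend and wrap axons, and neurons use it in axons, dendrites and spines. Of the 8 genes, *Ddr1* encodes a receptor tyrosine kinase that binds collagen. *Sorbs3* encodes vinexin, an adaptor that binds vinculin at adhesions, and *Phldb1* encodes LL5-alpha, a pleckstrin homology domain protein of the cell cortex. *Wipf1* encodes the partner of WASP proteins known as WIP, and *Fnbp1* encodes FBP17, an F-BAR protein that bends membranes and recruits actin regulators. *Arhgap23* and *Agap1* encode GTPase-activating proteins for small GTPases, the second for the Arf family, and *Pik3c2b* encodes a class II phosphoinositide 3-kinase.

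The genes lie apart from each other in the GRCm39 build, on 6 chromosomes. *Phldb1* is at chr9:44597601-44646550 and *Ddr1* at chr17:35992208-36015524, both on the minus strand. *Agap1*, at chr1:89382425-89838077 on the plus strand, spans 455.7 kb and is the longest of the 8, and *Ddr1* is the shortest with 23.3 kb.

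RefSeq promoter sequences (build GRCm38.p6) were at hand for 6 of the 8 genes, with 12 start sites in all. The 250 bases before each start were searched on both strands for 4 motifs of factors known from oligodendrocytes or from actin and adhesion genes. The SOX core ACAAAG was present in 16.5% of all 32851 promoters and in 3 of the 12. The OLIG2 E-box CAGATG was present in 14.4% of all promoters and in 4 of the 12. In both cases these were promoters of *Phldb1*, *Fnbp1* and *Ddr1*. The TEAD motif GGAATG, in 12.6% of all promoters, and the SRF CArG box, in 1.47%, were in none of the 12. The 3 windows below are shown because they hold the SOX core, and capitals mark the SOX core or the OLIG2 E-box on either strand. The *Phldb1* window (chr9:44735199-44735448) holds both motifs 1 base apart, the *Fnbp1* window (chr2:31096501-31096750) holds both, and the *Ddr1* window (chr17:35704140-35704389) holds the SOX core 2 times. All 3 are on the minus strand and are written 5′ to 3′.
Phldb1: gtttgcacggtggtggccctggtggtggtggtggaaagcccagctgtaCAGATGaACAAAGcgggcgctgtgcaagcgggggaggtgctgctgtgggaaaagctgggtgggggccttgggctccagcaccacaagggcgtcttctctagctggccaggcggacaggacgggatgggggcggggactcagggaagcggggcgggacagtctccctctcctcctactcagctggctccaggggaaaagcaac
Fnbp1: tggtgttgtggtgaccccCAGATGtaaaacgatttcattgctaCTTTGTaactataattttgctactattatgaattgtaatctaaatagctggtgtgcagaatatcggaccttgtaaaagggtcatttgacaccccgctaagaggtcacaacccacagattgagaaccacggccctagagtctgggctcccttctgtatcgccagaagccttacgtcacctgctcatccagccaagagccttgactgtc
Ddr1: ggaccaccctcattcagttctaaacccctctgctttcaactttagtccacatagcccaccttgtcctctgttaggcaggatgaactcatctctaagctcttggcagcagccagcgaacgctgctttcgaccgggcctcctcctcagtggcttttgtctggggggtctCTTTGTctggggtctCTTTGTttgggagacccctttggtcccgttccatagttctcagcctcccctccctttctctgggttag
A match is a description of the letters only, and none of the 3 windows was tested for binding.

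Among mice given NTG, all 8 genes were higher in every C9-BACexp library than in every C57BL/6J library, a pattern shown by 1.43% of all genes tested and one that the choice of genes used. *Ddr1* lay between 38.4 and 55.4 CPM (median 46.9) in the 6 C9-BACexp mice, against 24.3, 28.9, 28.0, 35.2 and 35.9 CPM in the C57BL/6J mice. *Sorbs3* lay between 26.4 and 48.1 CPM (median 29.7) in C9-BACexp mice, against 7.0, 11.8, 7.5, 15.96 and 24.4 CPM in C57BL/6J mice. The collagen receptor thus kept a narrow gap between the genotypes, and vinexin had its highest C57BL/6J library close to the lowest C9-BACexp one. *Phldb1* lay between 214 and 298 CPM (median 254) in C9-BACexp mice, against 65.8, 82.5, 107, 137 and 133 CPM in C57BL/6J mice. It had the highest ratio of means of the 8 genes, 2.43.

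The actin regulators and GTPase-activating proteins showed the same separation with NTG. *Wipf1* lay between 30.6 and 55.6 CPM (median 36.2) in C9-BACexp mice, against 11.8, 20.3, 14.8, 26.7 and 26.2 CPM in C57BL/6J mice. *Fnbp1* lay between 399 and 543 CPM (median 448) in C9-BACexp mice, against 243, 270.3, 299, 345 and 302 CPM in C57BL/6J mice. Of these 2 partners of WASP-type actin assembly, *Wipf1* was 1.98 times and *Fnbp1* 1.58 times as high in C9-BACexp mice by the ratio of means. *Arhgap23* lay between 291 and 369 CPM (median 322) in C9-BACexp mice, against 157, 169.9, 248, 233 and 179.8 CPM in C57BL/6J mice. *Agap1* lay between 685 and 776 CPM (median 711) in C9-BACexp mice, against 442, 420.1, 499.8, 470.4 and 569 CPM in C57BL/6J mice. *Agap1* varied least among the C9-BACexp mice relative to its level, with an SD of 32.6 CPM about a mean of 716 CPM. *Pik3c2b*, the lipid kinase, lay between 129 and 186 CPM (median 141) in C9-BACexp mice, against 55.0, 82.8, 95.1, 109.4 and 97.2 CPM in C57BL/6J mice.

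**Figure D1:**
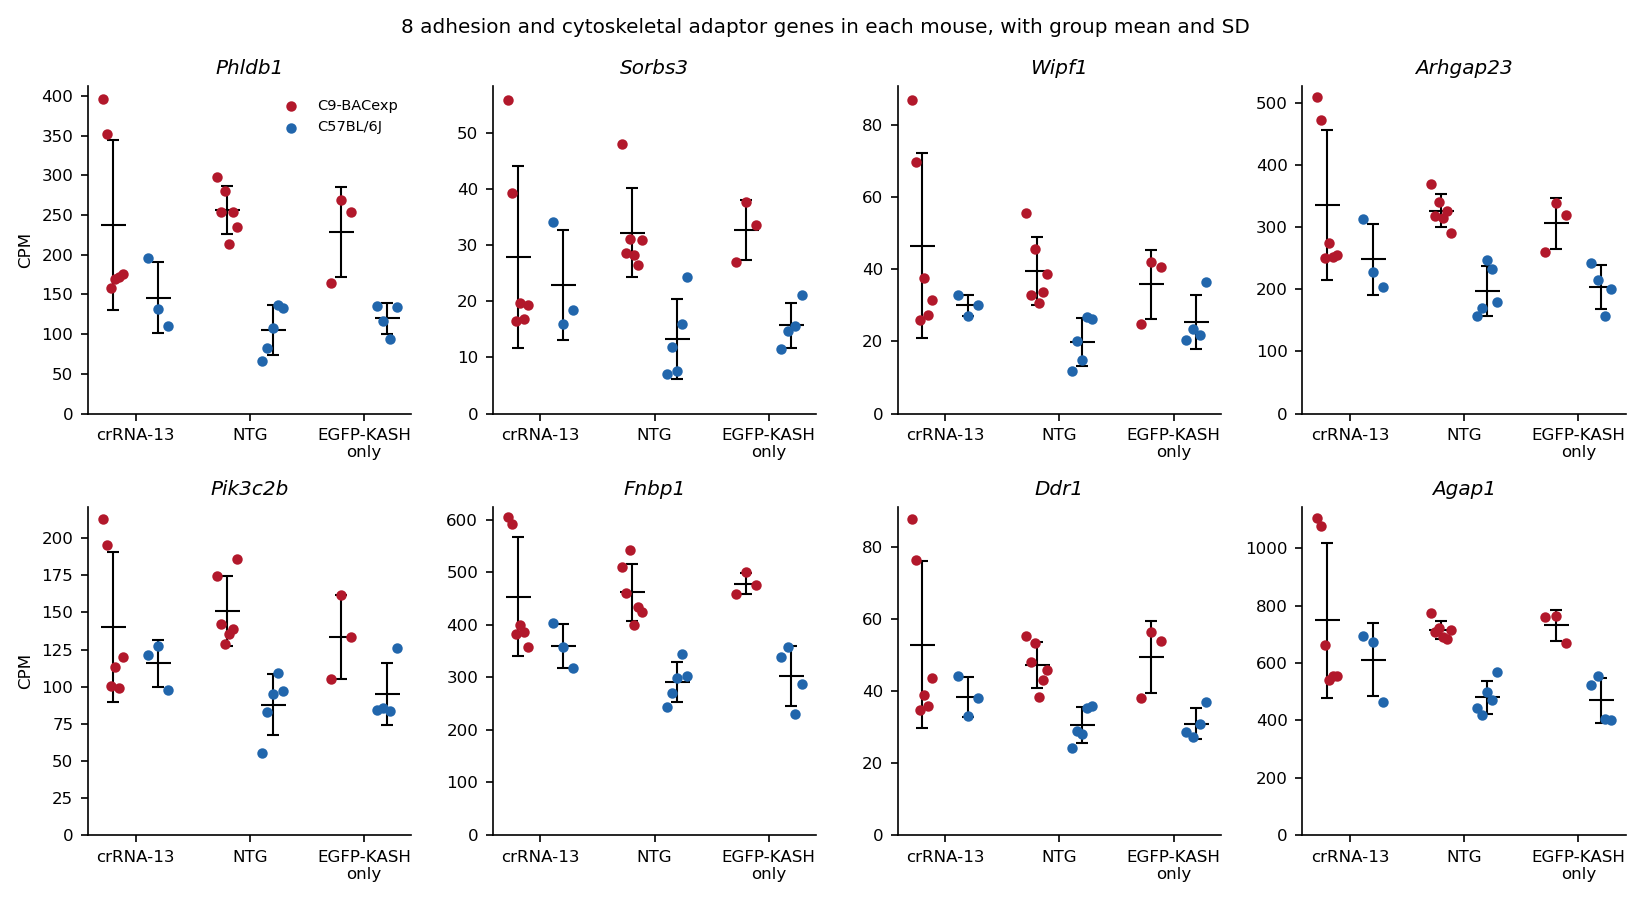
Expression of the 8 genes (CPM, linear axes from 0) in each mouse with crRNA-13, NTG or EGFP-KASH only, C9-BACexp in red and C57BL/6J in blue, with the mean and SD of each group as bars. With NTG every red point is above every blue point, while with crRNA-13 only 2 or 3 of the 6 C9-BACexp mice are above the highest C57BL/6J mouse.

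Among mice given EGFP-KASH only, which received no effector, 6 of the 8 genes did not overlap, against 3.30% of all genes. The choice of genes used this comparison too. *Phldb1* had 164, 269 and 254 CPM in C9-BACexp mice, against 136, 116, 93.4 and 134 CPM in C57BL/6J mice. *Fnbp1* had 459, 500.1 and 477 CPM in C9-BACexp mice, against 339, 357, 230.8 and 287 CPM in C57BL/6J mice. Those genes and *Sorbs3*, *Arhgap23*, *Ddr1* and *Agap1* were separated between the genotypes, whereas *Wipf1* and *Pik3c2b* were not. *Wipf1* had 24.7, 42.0 and 40.7 CPM in C9-BACexp mice, against 20.3, 23.4, 21.7 and 36.6 CPM in C57BL/6J mice. *Pik3c2b* had 105.0, 162 and 133 CPM in C9-BACexp mice, against 84.6, 85.6, 83.7 and 126 CPM in C57BL/6J mice. In both cases replicate 5 of the C57BL/6J mice, the library with the highest oligodendrocyte score of its group (5.44), overlapped the C9-BACexp range. C57BL/6J replicate 4, with a score of 5.20, was below every C9-BACexp library for all 8 genes. Its score was also below the lowest C9-BACexp score of this treatment, 5.25. With NTG, C57BL/6J replicate 5 had a score of 5.87, above that of 5 of the 6 C9-BACexp libraries. It was below every C9-BACexp library for all 8 genes, as were the other C57BL/6J libraries with NTG. The choice of genes used that separation, so it is no test of the score.

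In the model of the 6 groups with 4 factors of unwanted variation, the log2 fold changes of the 8 genes with NTG ran from 0.57 for *Agap1* to 1.37 for *Sorbs3*, with a median of 0.76. With EGFP-KASH only they ran from 0.49 for *Wipf1* to 1.07 for *Sorbs3*, with a median of 0.66. Over all genes tested the medians were 0.02 with NTG and -0.03 with EGFP-KASH only. In the same model 4.01% of all genes passed the limits (adjusted p under 0.05 and at least 1.2-fold) as higher and 2.59% as lower in C9-BACexp mice with NTG. With EGFP-KASH only these shares were 1.59% and 1.27%.

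With crRNA-13 the genotypes overlapped for all 8 genes, and 0.900% of all genes did not overlap in that direction. *Phldb1* had 396, 352, 158, 169, 172 and 175 CPM in C9-BACexp mice, against 196, 131 and 110.2 CPM in C57BL/6J mice. *Arhgap23* had 509.8, 472, 251, 275, 252 and 255 CPM in C9-BACexp mice, against 313, 228 and 203 CPM in C57BL/6J mice. In both genes C9-BACexp replicates 1 and 2 stood far above the other 4, and those 4 lay within the range of the C57BL/6J mice. *Ddr1* had 87.7, 76.4, 34.7, 38.7, 35.8 and 43.6 CPM in C9-BACexp mice, against 44.1, 32.9 and 37.9 CPM in C57BL/6J mice. *Wipf1* had 87.1, 69.7, 25.96, 37.6, 27.2 and 31.4 CPM in C9-BACexp mice, against 32.8, 27.1 and 30.1 CPM in C57BL/6J mice. The same 2 C9-BACexp libraries were the highest of the group for *Sorbs3* (39.4 CPM or more, against 16.5 to 19.6 CPM in the other 4), *Pik3c2b* (196 CPM or more, against 98.7 to 120.2 CPM), *Fnbp1* (592 CPM or more, against 358 to 401 CPM) and *Agap1* (1079 CPM or more, against 540.1 to 664 CPM).

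In the edgeR quasi-likelihood test with the 4 factors, 4 of the 8 genes were higher in C9-BACexp mice with crRNA-13 and none was lower, against 0.441% and 0.639% of all genes. The collagen receptor *Ddr1* had a log2 fold change of 0.37 (SE 0.08, adjusted p = 0.0216). *Phldb1* had 0.62 (SE 0.12, adjusted p = 0.00645) and *Arhgap23* had 0.38 (SE 0.08, adjusted p = 0.0152). *Wipf1* had 0.48 (SE 0.12, adjusted p = 0.0414), the largest adjusted p of the 4. The other 4 did not pass. *Fnbp1* had a log2 fold change of 0.31 (SE 0.09, adjusted p = 0.0667), *Agap1* 0.24 (SE 0.08, adjusted p = 0.106), *Pik3c2b* 0.21 (SE 0.09, adjusted p = 0.254) and *Sorbs3* 0.13 (SE 0.18, adjusted p = 0.779).

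These calls depended on the factors, on the adjustment of p and on single libraries. With p adjusted within the crRNA-13 comparison alone, *Phldb1* (adjusted p = 0.0395) was the only one of the 8 called by edgeR, and *Arhgap23* (adjusted p = 0.0542), *Ddr1* (adjusted p = 0.0606) and *Wipf1* (adjusted p = 0.0968) did not pass. In the edgeR test without factors, which called 0.00919% of all genes as higher, none of the 8 passed, and 1 of the 8, *Phldb1*, had an unadjusted p under 0.05 (adjusted p = 0.570, log2 fold change 0.70, SE 0.29). Leaving out both C9-BACexp replicates 1 and 2 left none called by edgeR with factors, with log2 fold changes of 0.23 for *Phldb1* (adjusted p = 0.432), 0.07 for *Arhgap23*, 0.02 for *Wipf1* and -0.01 for *Ddr1*. Leaving out 1 library at a time left none called without C9-BACexp replicate 2 or without C57BL/6J replicate 5. Without C9-BACexp replicate 1 or C57BL/6J replicate 2, *Phldb1* alone was called. The first factor, which is estimated from the spread within groups, had a Pearson r of 0.86 with the oligodendrocyte score after group means were taken out. Such factors lower the standard error (0.12 for *Phldb1* with them) and are not made to remove differences between group means. With crRNA-13 the median log2 fold change of the 8 genes was 0.34 with factors, 0.39 without and 0.22 with the score in their place. With NTG these medians were 0.76, 0.75 and 0.49.

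The 2 high libraries also stood apart in their marker scores. Their oligodendrocyte scores were 7.06 and 6.15, against 4.44 to 5.20 in the other 4 C9-BACexp mice with crRNA-13. Their upper-layer neuron scores of 4.65 and 4.51 were below those of all other 25 libraries (4.85 to 6.39). Their striatal projection neuron scores of 5.14 and 5.46 were above the median of the other 25 (3.44), which ran from 2.96 to 6.77. The part of these markers in the values of the 8 genes was not tested.

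The question behind the choice of these genes is how far they follow the oligodendrocyte content of a library. Between mice of 1 group, the level of all 8 genes had a positive slope on the oligodendrocyte score, and 5 of the 8 passed the edgeR test of the slope, adjusted over all genes. Of all genes tested, 13.9% had a called positive slope and 11.7% a called negative one. *Sorbs3* had the steepest slope, 0.70 log2 units per unit of score (SE 0.06, adjusted p = 1.2e-09), and *Wipf1* followed with 0.57 (SE 0.07, adjusted p = 9.8e-07). *Ddr1* had a slope of 0.39 (SE 0.05, adjusted p = 6.8e-06), *Phldb1* 0.36 (SE 0.08, adjusted p = 0.0020) and *Pik3c2b* 0.31 (SE 0.07, adjusted p = 0.0021). *Agap1* (0.18, SE 0.07, adjusted p = 0.0536), *Fnbp1* (0.15, SE 0.06, adjusted p = 0.0695) and *Arhgap23* (0.18, SE 0.08, adjusted p = 0.1003) did not pass. Without C9-BACexp replicates 1 and 2 with crRNA-13, a choice made after seeing the data, 3 of the 8 passed by edgeR (*Sorbs3*, *Wipf1* and *Ddr1*). *Phldb1* then had a slope of 0.21 (adjusted p = 0.0999) and *Pik3c2b* 0.20 (adjusted p = 0.0814), and the slopes of *Arhgap23* (-0.02) and *Agap1* (-0.0012) were no longer positive. For scale, the 30 oligodendrocyte markers that make the score had a median slope of 1.04, and all genes a median of -0.01.

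Correlations within groups ordered the genes in a similar way. Over the 27 mice, after group means were taken out, *Sorbs3* had a Pearson r of 0.94 (permutation p = 1e-05, the smallest that 100000 permutations within groups can give) and a Spearman coefficient of 0.93 (permutation p = 1e-05) with the score. *Wipf1* had r = 0.87 and Spearman coefficient = 0.86, and *Ddr1* had r = 0.85 and Spearman coefficient = 0.89, with permutation p of at most 2e-05. *Pik3c2b* (r = 0.68, permutation p = 0.00187; Spearman coefficient = 0.65, permutation p = 0.00168) and *Phldb1* (r = 0.68, permutation p = 0.00243; Spearman coefficient = 0.63, permutation p = 0.0025) were intermediate. *Agap1* (r = 0.47, permutation p = 0.0615; Spearman coefficient = 0.27, permutation p = 0.247), *Fnbp1* (r = 0.46, permutation p = 0.0638; Spearman coefficient = 0.41, permutation p = 0.0792) and *Arhgap23* (r = 0.42, permutation p = 0.0995; Spearman coefficient = 0.34, permutation p = 0.150) had the weakest relations. Without the 2 libraries farthest from their group mean in the score, C9-BACexp replicate 1 with crRNA-13 and C57BL/6J replicate 5 with NTG, r was 0.90 for *Sorbs3*, 0.83 for *Wipf1*, 0.82 for *Ddr1*, 0.61 for *Pik3c2b* and 0.54 for *Phldb1*. It was 0.32 for *Fnbp1* and *Arhgap23* and 0.22 for *Agap1*. Slopes on the score were fitted for all 21768 genes, and the adjusted p given for each of the 8 is that of its slope over all of them.

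**Figure D2:**
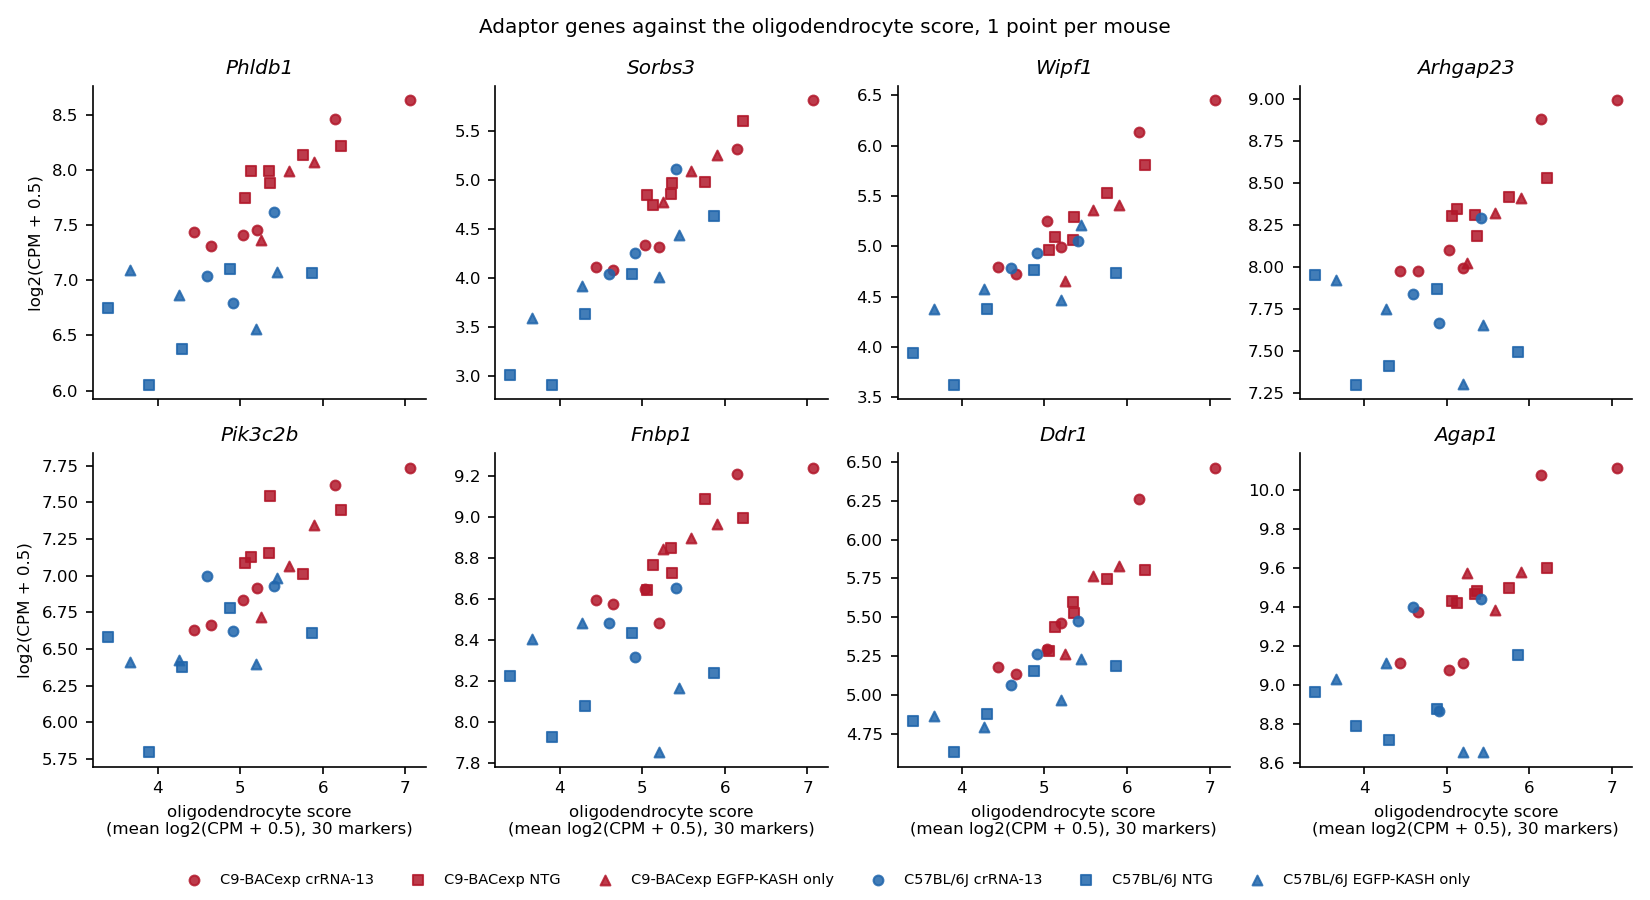
Level of the 8 genes (log2(CPM + 0.5)) against the oligodendrocyte score, 1 point per mouse, C9-BACexp in red and C57BL/6J in blue, with circles for crRNA-13, squares for NTG and triangles for EGFP-KASH only. *Sorbs3* and *Wipf1* rise with the score in both genotypes, and the points of *Arhgap23*, *Fnbp1* and *Agap1*, which had slopes of 0.15 to 0.18, scatter more widely.

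The slopes were also fitted in each genotype. In the 15 C9-BACexp mice alone all 8 genes passed the edgeR test, with slopes from 0.30 for *Fnbp1* to 0.73 for *Wipf1*. Without C9-BACexp replicates 1 and 2 with crRNA-13, in the fit of both genotypes, the C9-BACexp slopes were 0.05 for *Agap1*, 0.21 for *Fnbp1* and 0.23 for *Arhgap23*. In the 12 C57BL/6J mice alone only *Sorbs3* (0.67, adjusted p = 0.00428) and *Wipf1* (0.39, adjusted p = 0.0309) passed, and *Ddr1* had 0.21 (adjusted p = 0.0535). *Arhgap23* (-0.09), *Fnbp1* (-0.02) and *Agap1* (-0.02) had slopes near 0 there. In an edgeR test of the difference between the slopes of the genotypes, adjusted over all genes, none of the 8 passed. Of all 21768 genes, 1 passed as steeper in C9-BACexp mice and 0 as steeper in C57BL/6J mice. The slope was steeper in C9-BACexp mice for all 8 and 7 had an unadjusted p under 0.05, the smallest for *Arhgap23* (0.42 in C9-BACexp mice and -0.09 in C57BL/6J mice, a difference of 0.51, SE 0.12, adjusted p = 0.156). Without C9-BACexp replicates 1 and 2 with crRNA-13, that difference was 0.32 (SE 0.18) and 0 of the 8 had an unadjusted p under 0.05. The slope was then steeper in C9-BACexp mice for 7 of the 8, the exception being *Sorbs3* (difference -0.07, SE 0.18). The shares of all genes that passed in 1 genotype alone, or had an unadjusted p under 0.05 for the difference, were not counted.

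With the score in the model, the genotype differences with NTG became smaller, by an extent that varied with the scores and libraries included. The median log2 difference of the 8 genes was 0.49 with the oligodendrocyte score, against 0.75 in the fit of groups alone, and the oligodendrocyte score itself differed by 1.01 between C9-BACexp (5.48) and C57BL/6J (4.47) mice. With the astrocyte, upper-layer and striatal scores added the median was 0.16. With the oligodendrocyte score alone and without C9-BACexp replicates 1 and 2 with crRNA-13, the median was 0.61. The mean scores of other cell types also moved with genotype among NTG mice, with 4.57 in C9-BACexp and 3.31 in C57BL/6J mice for striatal projection neurons, 5.18 and 5.85 for upper-layer neurons, 6.40 and 5.95 for deep-layer neurons and 3.62 and 4.07 for astrocytes, in the same order of genotypes. Their separate parts in the difference were not tested. With the oligodendrocyte score alone *Fnbp1* kept 77.3% of its difference (0.51 of 0.66) and *Arhgap23* 73.3% (0.53 of 0.73). *Phldb1* kept 72.4% (0.93 of 1.28, SE 0.20 with the score) and *Agap1* 68.0% (0.39 of 0.58). *Pik3c2b* kept 59.8% (0.47 of 0.78), *Sorbs3* 54.4% (0.69 of 1.27), *Wipf1* 43.0% (0.42 of 0.99) and *Ddr1* 36.8% (0.23 of 0.63, SE 0.13 with the score). The 30 oligodendrocyte markers, which make the score, had a median of 0.10, against 0.90 in the fit of groups alone.

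Among mice given EGFP-KASH only, the score differed by 0.94 between C9-BACexp (5.58) and C57BL/6J (4.64) mice. The median of the 8 genes was 0.40 with the score, against 0.65 in the fit of groups alone. Without C9-BACexp replicates 1 and 2 with crRNA-13 the median was 0.53 with the score. *Fnbp1* kept 76.5% of its difference (0.50 of 0.66), whereas *Sorbs3* kept 38.8% (0.41 of 1.05) and *Wipf1* had -0.05 with the score, against 0.49 in the fit of groups alone. With crRNA-13 the score differed by 0.45 between C9-BACexp (5.42) and C57BL/6J (4.97) mice. The median of the 8 genes was then 0.22 with the score, against 0.39 in the fit of groups alone, and 0.04 with the score when C9-BACexp replicates 1 and 2 were left out. Striatal scores averaged 4.50 in C9-BACexp and 3.40 in C57BL/6J mice with crRNA-13, and their part was not tested. None of the 8 passed the edgeR test with the score, and 1, *Phldb1*, had an unadjusted p under 0.05 (log2 difference 0.47, SE 0.22, adjusted p = 0.609). *Sorbs3* had -0.14 (SE 0.14) with the score, against 0.29 (SE 0.39) in the fit of groups alone.

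**Figure D3:**
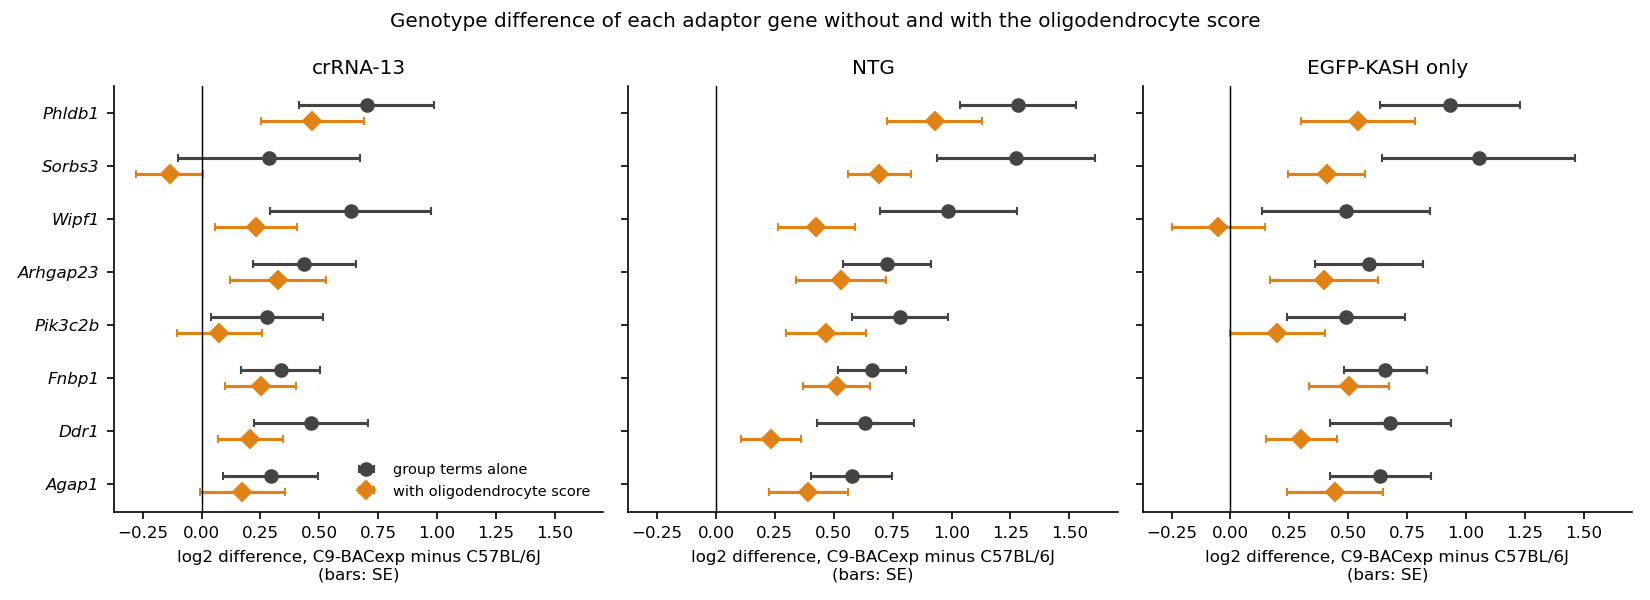
Log2 difference between C9-BACexp and C57BL/6J mice for each of the 8 genes with crRNA-13, NTG and EGFP-KASH only, from edgeR fits of the groups alone (gray circles) and with the oligodendrocyte score (orange diamonds); bars are standard errors. With NTG all 8 diamonds remain above 0, from 0.23 for *Ddr1* to 0.93 for *Phldb1*, while *Sorbs3* with crRNA-13 (-0.14) and *Wipf1* with EGFP-KASH only (-0.05) lie below it.

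The 8 genes were then set beside the markers of other cell types within groups. They moved opposite to the upper-layer neuron score, with r from -0.71 for *Agap1* to -0.41 for *Pik3c2b* over the 27 mice (median -0.64). The upper-layer score itself had r = -0.61 with the oligodendrocyte score. For the 3 genes with the weakest relation to the oligodendrocyte score, the upper-layer score was the stronger one, with r of -0.71 for *Agap1*, -0.70 for *Fnbp1* and -0.58 for *Arhgap23*. Microglial markers ran from 0.01 for *Arhgap23* to 0.62 for *Sorbs3* and astrocyte markers from -0.43 for *Arhgap23* to 0.06 for *Wipf1*. With the astrocyte, upper-layer and striatal scores added to the model, *Sorbs3*, *Wipf1* and *Ddr1* kept a called positive slope on the oligodendrocyte score and *Phldb1* (0.25, adjusted p = 0.0822) and *Pik3c2b* (0.22, adjusted p = 0.0759) did not. The median genotype difference of the 8 genes was then -0.05 with crRNA-13 and 0.27 with EGFP-KASH only. These correlations share depth and library.

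**Figure D4:**
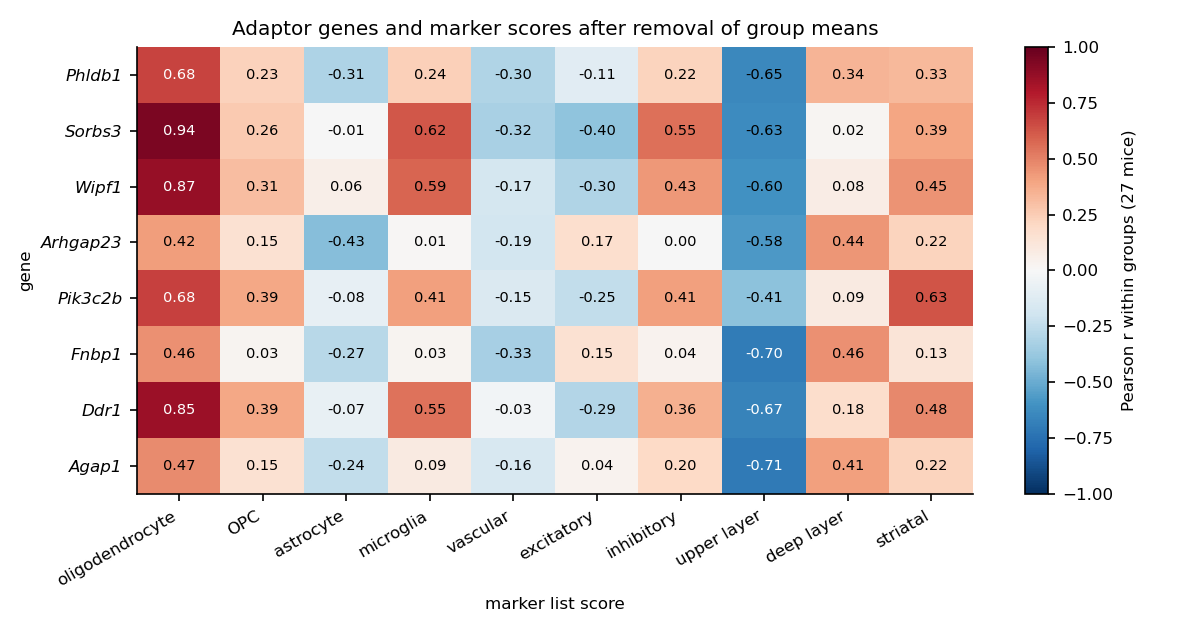
Pearson r between the level of each of the 8 genes and 10 marker scores over 27 mice after group means were taken out, blue for negative and red for positive values. The oligodendrocyte column runs from 0.42 for *Arhgap23* to 0.94 for *Sorbs3*, and the upper-layer column is negative throughout.

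Treatments can be compared within a genotype only as a description, since the NTG libraries were used in the choice of genes. In C57BL/6J mice all 8 genes were higher with crRNA-13 than with NTG in the fit of groups alone, by 0.30 (*Fnbp1*) to 0.78 (*Sorbs3*) on the log2 scale with a median of 0.37, where all genes had a median of -0.01. *Sorbs3* averaged 22.9 ± 9.8 CPM with crRNA-13 (SD, n = 3) and 13.3 ± 7.2 CPM with NTG (SD, n = 5) in C57BL/6J mice. In C9-BACexp mice 4 of the 8 were higher with crRNA-13 than with NTG, from -0.21 to 0.23 with a median of 0.01. *Phldb1* averaged 237 ± 107 CPM with crRNA-13 and 256 ± 30 CPM with NTG in C9-BACexp mice (SD, n = 6 each). The oligodendrocyte score averaged 4.97 with crRNA-13 and 4.47 with NTG in these C57BL/6J mice, and 5.42 with crRNA-13 and 5.48 with NTG in C9-BACexp mice. Its part in these differences was not tested. Between NTG and EGFP-KASH only the medians were 0.04 in C9-BACexp mice and -0.08 in C57BL/6J mice.

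The 8 genes varied together among mice of 1 group, with C9-BACexp replicates 1 and 2 with crRNA-13 included. Those 2 libraries were the highest of their group for all 8 genes, and no r was computed without them. Nor was r computed for pairs of other genes. All 28 pairs of the 8 genes had a positive r over the 27 mice. It ran from 0.56 for *Wipf1* and *Agap1* to 0.94 for *Wipf1* and *Ddr1*, with a median of 0.78 over the pairs of the 8 genes. The genes most like their mean were *Aatk* (r = 0.95), *Cntn2* (r = 0.95), which encodes a contactin of the juxtaparanodal axon-glia junction, and *Abca2* (r = 0.94), a lipid transporter abundant in oligodendrocytes. *Fam102a*, *Kif13a*, *Arhgef10*, *Snx33*, *Sec14l5*, *Frmd8* and *Itprid2* followed with r between 0.91 and 0.94. None of these 10 was on a marker list, and their slopes on the oligodendrocyte score ran from 0.22 for *Itprid2* to 0.83 for *Snx33*.

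Of 15 close relatives (paralogs) of the 8 genes, 14 were tested. By edgeR 13.9% of all genes had a called positive slope on the oligodendrocyte score and 11.7% a called negative one. Of the 14 paralogs 0 had a called positive slope and 5 a called negative one. These were *Sorbs2* (-0.32, adjusted p = 2.2e-07), *Agap2* (-0.33, adjusted p = 0.00094), *Agap3* (-0.24, adjusted p = 0.0048), *Arhgap21* (-0.19, adjusted p = 0.0053) and *Wipf2* (-0.17, adjusted p = 0.0207). Between genotypes 1 of the 14, *Agap2*, was called higher in C9-BACexp mice with NTG (log2 fold change 0.34, SE 0.06, adjusted p = 0.0033 by edgeR with factors), and none with crRNA-13 or EGFP-KASH only. *Ddr2*, the other collagen receptor of its family, had 4.5 CPM on average in C9-BACexp and 4.2 CPM in C57BL/6J mice with NTG.

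The other genes of the same machinery are given by their counts. With crRNA-13, NTG and EGFP-KASH only, 0.441%, 4.01% and 1.59% of all genes were called higher and 0.639%, 2.59% and 1.27% lower. On the score 13.9% of all genes had a called positive slope and 11.7% a negative one. Of 30 focal adhesion genes, 1 was called higher with crRNA-13, 6 with NTG and 2 with EGFP-KASH only, and none was called lower. The 1 with crRNA-13 was *Git1*, a scaffold and Arf regulator (log2 fold change 0.32, SE 0.08, adjusted p = 0.0275 by edgeR with factors). Without factors *Git1* had an adjusted p of 0.612 by edgeR. On the oligodendrocyte score 8 of the 30 had a called positive slope and 3 a negative one. The smallest p belonged to *Tns3*, a tensin that connects integrins to actin (slope 0.70, SE 0.06), *Itgb4*, the integrin beta-4 subunit (0.86, SE 0.08), *Clasp2*, a microtubule plus-end protein (0.35, SE 0.05), and *Itgav*, the integrin alpha-V subunit (0.44, SE 0.09). Of 26 actin nucleation genes 25 were tested. None was called between genotypes with crRNA-13, 1 was higher and 2 were lower with NTG, and 1 was lower with EGFP-KASH only. Of these 25 genes 10 had a called positive slope on the score, led by the small GTPases *Rac1* (0.54, SE 0.06) and *Rhoa* (0.60, SE 0.08), the Arp2/3 subunit *Arpc1a* (0.28, SE 0.05) and *Nckap1* of the WAVE complex (0.34, SE 0.06).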

How the data were processed

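RNA from EGFP-KASH+ nuclei of the motor cortex was depleted of ribosomal RNA and sequenced by the authors. The deposited values are expected counts per gene, which the authors estimated with Salmon 1.10.0 on spliced and unspliced GRCm39 transcripts and imported in R 4.3.1. They are not normalized between libraries. Spliced and unspliced transcripts of a gene are summed, so they cannot be told apart here.

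Here the counts were rounded and analyzed in R 4.3.3 with edgeR 4.0.16 (TMM scaling, filterByExpr with a smallest count of 10 and a smallest total of 15, robust quasi-likelihood F test). Totals were 21508829 to 36777972 counts per library, with a median of 29001126. Genotype differences were fitted in 1 model of 6 groups, with 4 factors of unwanted variation from the residuals, as an assumption about the paper's RUVSeq step, and p-values were adjusted by the Benjamini-Hochberg method over all genes and 5 comparisons together. Slopes on the oligodendrocyte score were fitted with the 6 groups and without factors and adjusted over all genes. Standard errors are the log2 value divided by the square root of F. Correlations used deviations from group means and permutation within groups. The model code was tested on simulated data. Alternatives used limma 3.58.1 and DESeq2 1.42.0, other scaling, filters and scores, a replicate block and left-out libraries.

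The 8 genes, the marker lists and the lists of related genes were chosen with earlier results of these data known. Besides the 8 genes, the text names up to 4 genes of each related list that were called with crRNA-13 or on the score, by smallest p, and the 10 genes most correlated with the mean of the 8. *Slc17a7*, *Gfap*, *Aqp4*, *Ddr2*, *Git1* and the fifth paralog were added after their values were seen. Replicate numbers recur between groups but the labels do not say that they mark a shared litter or batch. The labels give no batch. Gene positions are from GENCODE M39.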

Additional observations from a re-analysis of the deposited data

Results flagged for a closer look

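*Sorbs3* was 48.1 CPM in C9-BACexp replicate 1 with NTG, far from the other 5 mice of its group, of which the next was at 31.2 CPM. *Pik3c2b* was 126 CPM in C57BL/6J replicate 5 with EGFP-KASH only, where the next of the other 3 mice was at 85.6 CPM. These were 2 of the 36 sets of 4 to 6 mice looked at, and chance marks about 1 in 20 groups in this way.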

How the results depend on the processing

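The count of the 8 genes called between genotypes with crRNA-13 was 4. It was 0 without factors and 1 with p adjusted within the comparison alone, and from 0 to 5 when 1 library was left out. Leaving out C9-BACexp crRNA-13 replicates 1 and 2, chosen after seeing the data, gave 0, with log2 fold changes of -0.34 for *Sorbs3*, -0.10 for *Pik3c2b*, -0.0067 for *Ddr1* and -0.066 for *Agap1*. The log2 fold change of *Sorbs3* ran from -0.098 to 0.526 with 1 library left out. It was below 0 when the omitted mouse was C9-BACexp replicate 1 or 2 (-0.098, -0.018) or C57BL/6J replicate 2 or 5 (-0.091, -0.0030). The cause was not tested. DESeq2 called 5, limma-trend 4, and counts with other scaling or no filter were 4 and 3.

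The count of genes with a called slope on the oligodendrocyte score was 5. It was 8 in C9-BACexp mice alone and 2 in C57BL/6J mice alone, where *Arhgap23* (-0.089), *Fnbp1* (-0.024) and *Agap1* (-0.015) turned negative. It was 3 with the astrocyte, upper-layer and striatal scores added. It was also 3 without C9-BACexp crRNA-13 replicates 1 and 2, where *Arhgap23* was at -0.023 and *Agap1* at -0.0012. With 1 library left out it ran from 5 to 8, and it was 8 without C57BL/6J EGFP-KASH only replicate 2 or 4. The cause was not tested.

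With the score in the model, the median difference of the 8 genes ran from 0.15 to 0.26 with crRNA-13, 0.38 to 0.55 with NTG and 0.25 to 0.50 with EGFP-KASH only when 1 library was left out. With the 3 scores added it was -0.053 with crRNA-13 and 0.16 with NTG. With the oligodendrocyte score alone and without C9-BACexp crRNA-13 replicates 1 and 2 it was 0.044 with crRNA-13, 0.61 with NTG and 0.53 with EGFP-KASH only. Of 48 pairs of libraries with the same replicate number, 10 had a correlation of their deviations above 0.1 (range -0.16 to 0.32). Libraries with different numbers were not compared, so these values cannot show whether the numbers pair the samples. With the replicate block 5 of the 8 genes were called with crRNA-13 and 5 on the score.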
